A study of Mus musculus with 17 samples.

Results

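Mfsd2a, the gene of a membrane carrier for lysophospholipids, was examined in lung RNA of 17 mice exposed to perfluorooctanoic acid (PFOA) or vehicle. It is 1 of the 31245 genes in the count table and 1 of the 26948 that were tested. The gene was chosen by its measured levels, for a rise on PFOA in PPARα null and in humanized PPARα mice and not in wild-type mice. Its levels in the exposure groups, and its differences from wild type, are therefore given as descriptions with no test. PFOA is a perfluoroalkyl acid with a long carbon chain, and PPARα is a nuclear receptor that binds fatty acids and switches on genes of fatty acid oxidation.

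The mice were wild type on an Sv/129 background (WT), PPARα null (KO), or humanized for PPARα (KI), with the human receptor. They were fed a custom American-type diet from 6 weeks of age, and drank either 0.5% sucrose water (vehicle) or the same water with 6.2 μg/mL PFOA for 14 weeks. Each of the 6 groups had 3 libraries, except WT vehicle, which had 2. There were 12 females and 5 males, and all KO mice were female. WT mice were bought from a supplier, whereas KO and KI mice were bred from PPARα null and human PPARα heterozygous pairs, so genotype and source of the mice cannot be told apart. The labels give each library as a separate mouse, identified here by the mouse's own number. Total counts per library ranged from 4116124 to 9237376. The libraries of WT vehicle mouse 122 and KO vehicle mouse 137 stood apart, with 65.3% and 61.3% of their counts in protein-coding genes against at least 74.4% in the others. The Ppara row did not separate the KO libraries by a low level: it held 6.10 to 7.15 CPM (counts scaled to a common library size) in WT vehicle, 9.17 to 11.7 in KO vehicle and 12.6 to 15.5 in KI vehicle. A total over the whole gene does not show which exons were read, so KO and KI stand below for the labels.

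Mfsd2a carries lysophosphatidylcholine, a phospholipid that has lost a fatty acid chain, into cells together with sodium. It is best known in the endothelium of the blood-brain barrier, where it brings the omega-3 fatty acid docosahexaenoic acid into the brain and restrains transport by caveolae. In the lung it is known from alveolar type 2 cells, which take up lysophosphatidylcholine as a building block of surfactant, and in the liver it is known as a gene that fasting induces through PPARα.

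The gene (ENSMUSG00000028655) lies on the minus strand of chromosome 4, from 122946850 to 122961188 in mm10. Its main transcript, Mfsd2a-201, has 14 exons with 2151 bases, of which 1602 are coding, and 3 shorter transcripts are annotated, 1 of them protein-coding. The stretch before the start site is shown because PPARα and other nuclear receptors bind repeats of AGGTCA. It covers 250 bases at chr4:122961189-122961438 on the minus strand, as RefSeq gives it for GRCm38.p6 (the assembly called mm10), and is written 5′ to 3′ up to the base before the start. Capitals mark the AGGTCA half-site and the CCAAT box read from the opposite strand.
Mfsd2a promoter: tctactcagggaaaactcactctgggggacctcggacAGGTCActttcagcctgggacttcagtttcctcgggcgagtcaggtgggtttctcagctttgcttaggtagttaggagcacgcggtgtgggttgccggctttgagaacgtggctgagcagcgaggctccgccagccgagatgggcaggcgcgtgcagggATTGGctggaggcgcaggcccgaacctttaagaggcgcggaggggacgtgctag

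The AGGTCA half-site began 213 bases before the start, and 14.0% of the 32851 RefSeq promoters of this length held at least 1 such match on either strand. The CCAAT box began 54 bases before the start, and 33.8% of promoters held one. No match was found on either strand for the paired half-sites AGGTCANAGGTCA (in 0.0335% of promoters) and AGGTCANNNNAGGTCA (0.0152%), the E-box CACGTG (6.02%) or the cyclic AMP response element TGACGTCA (1.55%). The 2 paired forms contain the half-site. GC content was 61.6%, against a median of 52.4% over all promoters. The reference sequence is that of C57BL/6J, whereas the WT mice were Sv/129 and no strain is stated for the KO and KI mice. These matches describe letters, not binding.

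Mfsd2a was a low-level gene in these lungs, with 4 to 89 counts per library. CPM were scaled by trimmed-mean (TMM) factors. In WT mice on vehicle, mouse 107 had 5.44 CPM (41 counts) and mouse 122 had 7.47 CPM (46 counts). In WT mice on PFOA, the levels were 3.53, 5.60 and 7.16 CPM in mice 50, 56 and 65 (28, 38 and 56 counts). The WT ranges overlapped.

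In KO mice the vehicle levels were low. Mice 137, 145 and 149 had 3.44, 1.85 and 3.02 CPM (15, 13 and 24 counts). On PFOA, mice 52, 154 and 155 had 7.22, 9.51 and 9.18 CPM (54, 89 and 61 counts). Every exposed KO library lay above every KO vehicle library, as was so for 6.81% of all genes tested.

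In KI mice on vehicle, mice 102, 116 and 135 had 0.644, 3.02 and 1.96 CPM (4, 24 and 14 counts). The 4 counts of mouse 102 have an exact 95% Poisson interval of 1.09 to 10.2 counts, or 0.175 to 1.65 CPM, which covers counting error only. On PFOA, mice 57, 80 and 139 had 6.72, 8.75 and 9.72 CPM (59, 68 and 70 counts). The KI ranges did not overlap either, as for 4.41% of genes. Both separations were found together in 105 genes (0.39%), and in 93 of these (0.345%) the WT ranges were not separated in the same direction. Since the gene was picked for this pattern, nothing is read from these shares.

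**Figure D1:**
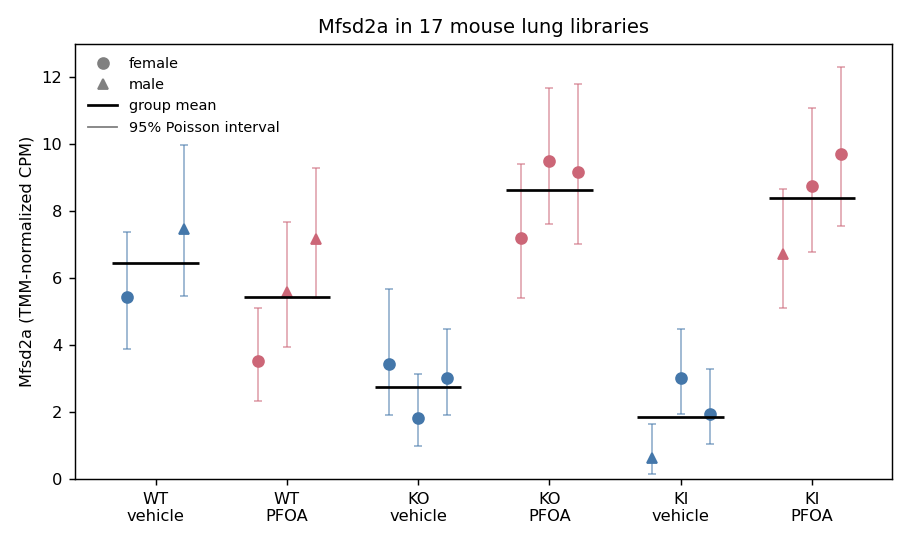
Mfsd2a level in each library (TMM-normalized CPM, linear axis from 0), by group, with circles for females, triangles for males, bars for exact 95% Poisson intervals and black lines for group means. KO and KI vehicle libraries sit between 0.644 and 3.44 CPM, KO and KI PFOA libraries between 6.72 and 9.72 CPM, and the WT libraries of both exposures between 3.53 and 7.47 CPM.

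Ordered by mean, the groups were KI vehicle with 1.88 ± 1.19 CPM (SD, n = 3), KO vehicle with 2.77 ± 0.826 (n = 3), WT PFOA with 5.43 ± 1.82 (n = 3), WT vehicle with 6.45 ± 1.44 (n = 2), KI PFOA with 8.40 ± 1.53 (n = 3) and KO PFOA with 8.64 ± 1.24 (n = 3). Of the 5 steps in this order, the one from KO vehicle to WT PFOA (2.66 CPM) joined groups with separate ranges, and it exceeded the larger SD of the pair (1.82 CPM). The step from WT vehicle to KI PFOA (1.94 CPM) was larger than the SD of 1.53 CPM, but the ranges overlapped. The other 3 steps were 0.239 to 1.02 CPM and lay within the spread. The WT groups thus stood in the middle, above both vehicle groups of the other genotypes and below both of their PFOA groups in mean.

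On the log2 scale, edgeR put the PFOA effect at -0.24 (SE 0.40) in WT, 1.66 (SE 0.38) in KO and 2.11 (SE 0.39) in KI. These are 0.845, 3.16 and 4.32 times the vehicle level. Without the libraries that stood apart, the WT effect was -0.01 (without mouse 122) and the KO effect 1.81 (without mouse 137). The KO and KI effects exceeded the WT effect by 1.90 (SE 0.54) and 2.36 (SE 0.55) on the log2 scale. Part of that difference lay in the vehicle mice. KO was below WT on vehicle by a log2 fold change of -1.23 (SE 0.42), and KI by -1.73 (SE 0.42). Both WT vehicle libraries were above all KO and all KI vehicle libraries, as in 4.58% of genes. On PFOA, KO was above WT by 0.67 (SE 0.35) and KI by 0.62 (SE 0.35). The lowest KO PFOA library (7.22 CPM) was just above the highest WT PFOA library (7.16 CPM), a separation seen in 9.91% of genes, whereas the KI and WT PFOA ranges overlapped. The contrasts of PFOA with vehicle and of KO or KI with WT share samples and are not independent of each other.

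The choice of the gene did not compare KO with KI, but it asked for a rise on PFOA in both, in these same libraries. The differences between KO and KI are therefore not free of that choice, above all the difference of their effects. They were tested in the edgeR fit, by quasi-likelihood F-tests adjusted over all genes by Benjamini-Hochberg. Intervals were taken as normal intervals from the SE. On vehicle, KI minus KO was -0.50 (SE 0.42, 95% interval -1.32 to 0.33, adjusted p = 0.788). On PFOA it was -0.04 (SE 0.34, 95% interval -0.71 to 0.62, adjusted p = 1.0). The KI effect minus the KO effect was 0.45 (SE 0.54, 95% interval -0.60 to 1.51, adjusted p = 0.957, edgeR). The gene was picked for both of these effects, so this last test cannot show whether they are alike. None of the 3 differences passed the threshold of an adjusted p under 0.2 with a fold change over 2, and the intervals leave room for more than a 2-fold difference on vehicle and in the effect. Calls were rare in these contrasts over all genes, at 0.00371% on vehicle and 0.0% for the other 2. edgeR made 0 calls on PFOA and 0 for the effect, where 622 (2.31%) and 1469 (5.45%) genes had an unadjusted p under 0.05 and DESeq2 made 3 calls (0.0111%) in each.

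**Figure D2:**
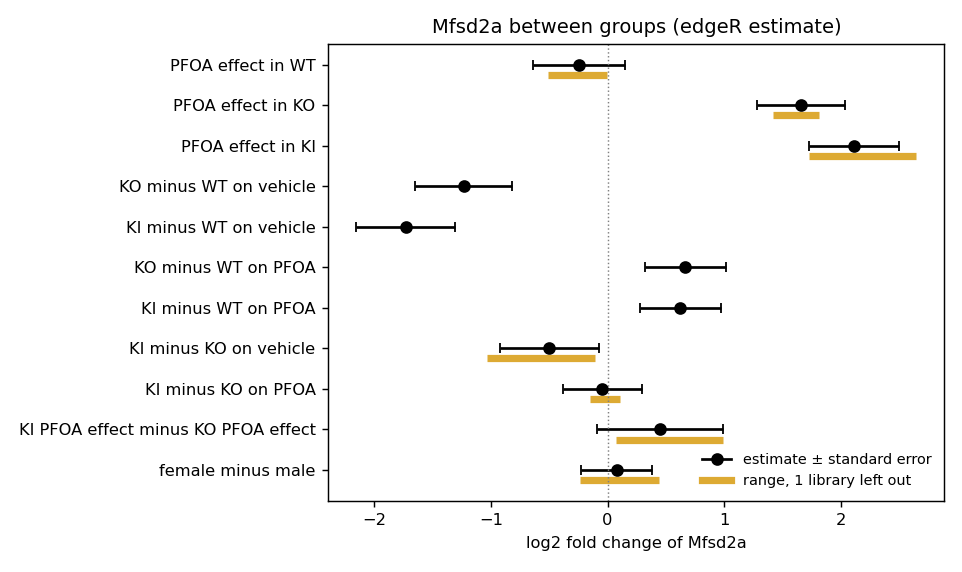
Log2 fold change of Mfsd2a in each contrast from edgeR, with points and black bars for the estimate and its standard error. Yellow bars, drawn for the contrasts that were refitted, show the range when 1 library is left out. The PFOA effects of 1.66 in KO and 2.11 in KI lie above the WT effect of -0.24, and the 2 differences between KO and WT or KI and WT on vehicle lie below 0.

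Sex was a measure that the choice of the gene did not use. Females and males differed by 0.08 on the log2 scale (female minus male, SE 0.30, 95% interval -0.52 to 0.68, edgeR adjusted p = 1.0), with groups held constant, and 0.0371% of genes were called. The order of the sexes was not the same in WT and KI. In WT the females had 5.44 CPM on vehicle and 3.53 on PFOA, below the males with 7.47 and with 5.60 to 7.16. In KI the males had 0.644 CPM on vehicle and 6.72 on PFOA, below the females with 1.96 to 3.02 and with 8.75 to 9.72. Separate sex terms, chosen after these values were seen, gave -0.68 (SE 0.34) in WT and 0.86 (SE 0.35) in KI. The difference of 1.54 (SE 0.49) did not pass adjustment (edgeR unadjusted p = 0.00602, adjusted p = 1.0).

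The column names also carry a number that has the form of a sequencing index, with 4 values over the series. All 3 KO PFOA libraries shared a value that no KO vehicle library had, so in KO this number and the exposure cannot be told apart. In KI, a vehicle library with 3.02 CPM and a PFOA library with 8.75 CPM shared a value, and so did a vehicle library with 1.96 CPM and a PFOA library with 9.72 CPM. In WT, both vehicle libraries (5.44 and 7.47 CPM) shared a value with a PFOA library of 7.16 CPM.

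None of the 5 counted genes annotated within 100 kb followed the Mfsd2a levels closely. The processed pseudogene Gm12891, 20777 bases away, was not analysed here. The nearest annotated gene, 4933421A08Rik, is a noncoding transcript on the plus strand that starts 120 bases beyond the Mfsd2a start, inside the stretch printed above. It had 34 counts in all 17 libraries together and at most 0.641 CPM, so its correlation (r = 0.447) could not be interpreted at this depth. Ppt1, a lysosomal enzyme that removes palmitate from proteins, and Cap1, which binds actin, lie 87674 and 60793 bases away and had 36.3 to 91.6 and 67.5 to 183 CPM. Their correlations with Mfsd2a over the 17 libraries were r = 0.0588 and 0.144. On the other side, Mycl, a Myc family transcription factor, and Trit1, a tRNA modifying enzyme, had r = 0.0373 and -0.0046. Their PFOA effects in KO were -0.12 (SE 0.30) and 0.32 (SE 0.26), and in KI -0.14 (SE 0.30) and -0.19 (SE 0.25). In WT, Mycl had a log2 fold change of -1.09 (SE 0.32, edgeR unadjusted p = 0.00323, adjusted p = 0.494) and Trit1 of -0.78 (SE 0.28, unadjusted p = 0.0118, adjusted p = 0.555). The WT values rest on the library of mouse 122. Without it they were -0.32 and -0.26. Without the other WT vehicle mouse, 107, they were -1.62 and -1.18. In each of these fits the lone WT vehicle library was assumed to vary like the other groups.

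The closest relative of the gene, Mfsd2b, exports sphingosine 1-phosphate from blood cells. Per kilobase of annotated exon, Mfsd2a had 0.286 to 4.32 CPM per kb over the libraries (median 2.49), and Mfsd2b 0.458 to 1.47 (median 0.79). The mean of Mfsd2a was above that of Mfsd2b in 5 of 6 groups, and in KI PFOA it was 3.73 against 0.734 CPM per kb. In KI vehicle the means were 0.834 and 0.854 and the ranges overlapped (0.286 to 1.34 and 0.719 to 1.05 CPM per kb), as they did in KO vehicle (0.821 to 1.53 and 0.552 to 1.47). Mfsd2b had r = 0.0619 with Mfsd2a, and its log2 PFOA effects were -0.17 in WT, -0.20 in KO and -0.22 in KI.

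The genes whose levels moved most like Mfsd2a were ranked by Pearson's r of log2 CPM over the 17 libraries, over the 19200 genes whose mean reached 1 CPM. The libraries are shared by all these genes, fall into the same 6 groups and differ in depth and in protein-coding share, so r is a description. Its median over genes was 0.0172 and its 5th and 95th percentiles were -0.367 and 0.393. A value of at least 0.6 was found for 68 genes (0.354%), and of -0.6 or below for 49 (0.255%). The 10 highest, from 0.77 to 0.71, were Sec14l2, Gm4865, Gm47798, Epn3, Socs3, Tma7-ps, 3110056K07Rik, Gm5560, Nup37 and Lcn2. Of these, 5 are protein-coding, and Gm4865, Tma7-ps and Gm5560 are processed pseudogenes, whose reads can be shared with their parent genes.

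Sec14l2, which binds tocopherol and squalene, had the highest r (0.77, Spearman's rho 0.57). Its levels spanned 6.44 to 17.2 CPM. Its correlation was carried by the vehicle libraries (r = 0.93 over 8) and not by the PFOA libraries (r = 0.18 over 9). The lowest Sec14l2 library was KI vehicle mouse 102, which was also the lowest for Mfsd2a. Without the 2 libraries farthest from the Mfsd2a median, which were KI vehicle mouse 102 and KO vehicle mouse 145, r was 0.46.

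Socs3, an inhibitor of cytokine signalling through STAT3, had r = 0.74 (rho 0.68), with 0.74 over the PFOA libraries, 0.79 over the vehicle libraries and 0.84 for deviations from group means. Its group means lay close together, from 23.9 ± 4.73 CPM (SD, n = 3) in KI vehicle to 28.3 ± 0.941 (n = 3) in KO PFOA. The likeness of Socs3 was thus seen between mice of the same group, with little difference between groups. Another 5 genes also reached 0.6 over all 17, over the PFOA and over the vehicle libraries, namely Gm5560, Sla2, Mad2l2, Npw and Nat14. The last 4 of these were named after their values were seen. Without the same 2 libraries, r for Socs3 was 0.46.

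Lcn2, which encodes the iron-binding protein lipocalin 2 and is made by neutrophils and epithelium, had r = 0.71 (rho 0.65). Among the 10 it had the largest PFOA effect in KO, whereas in KI that of Nup37 (1.19) was larger. Since Lcn2 was found by its likeness to Mfsd2a, its effects and ranges are descriptions too. Its log2 PFOA effect was -0.13 in WT, 0.98 in KO and 0.92 in KI. In KO it had 10.1, 20.5 and 27.3 CPM on vehicle and 37.5, 38.5 and 40.0 on PFOA. In KI it had 10.3, 25.5 and 25.6 CPM on vehicle and 33.2, 36.0 and 47.9 on PFOA. The ranges were separate in both genotypes, as in 0.39% of all genes. The WT ranges overlapped, at 19.7 to 31.7 CPM on vehicle and 21.8 to 24.8 on PFOA. The sign of its small WT effect turned with sex as a covariate (0.02) and without WT vehicle mouse 107 (0.25). The KI effect was 0.60 without KI vehicle mouse 102. The KO effect was 1.91 with the index number as a covariate, which in KO cannot be told apart from the exposure.

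At the other end, Gm42537, Rtn1, Eno1, Cdk10 and Alms1-ps2 had the lowest r, from -0.78 to -0.71. Rtn1 is a membrane protein of the endoplasmic reticulum, Eno1 is a glycolytic enolase and Cdk10 is a kinase. For deviations from group means alone, the highest r were those of Ttc26, Fer1l5, Zfp354a, Mpzl3 and 0610043K17Rik, at 0.86 to 0.89. Over all libraries their r were 0.24 to 0.54, so likeness between mice of the same group and likeness over all groups named different genes.

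The ranking depended on single libraries. Of the 10 highest genes, 1 remained among the top 10 without KI vehicle mouse 102, 4 without WT vehicle mouse 122, 5 without KO vehicle mouse 145 and 6 without KI PFOA mouse 139. Leaving out any other library kept 7 to 9, and 1 remained when Spearman's rho replaced Pearson's r.

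**Figure D3:**
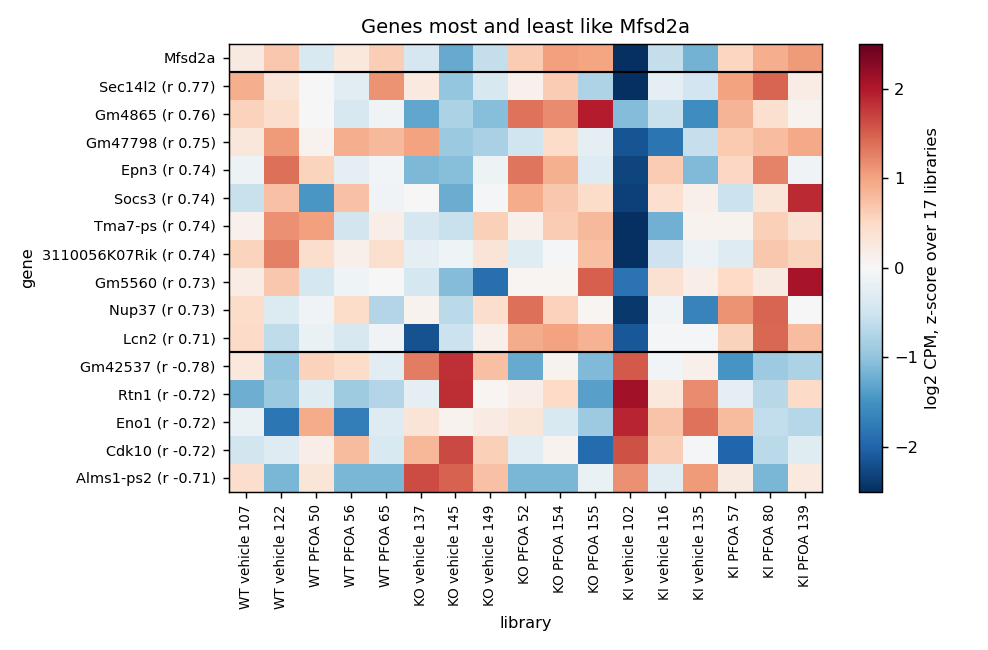
Log2 CPM of Mfsd2a and of the genes with the 10 highest and 5 lowest Pearson correlations with it, as a z-score of each gene over the 17 libraries (color, limited to 2.5 SD on each side). The library of KI vehicle mouse 102, lowest for Mfsd2a at 0.644 CPM, is dark blue in most of the 10 upper rows and red in most of the 5 lower rows.

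**Figure D4:**
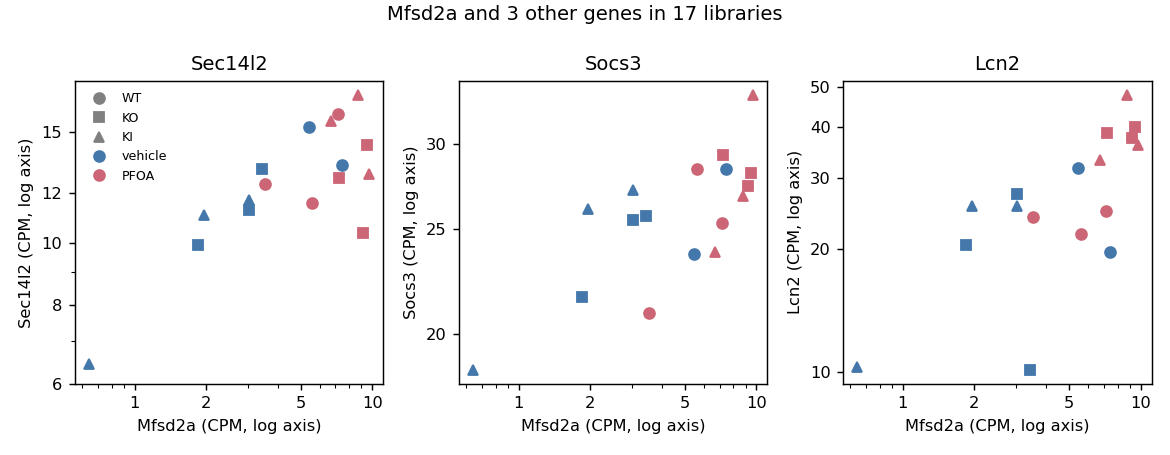
Level of Sec14l2, Socs3 and Lcn2 against Mfsd2a in the 17 libraries (CPM, both axes logarithmic), with circles for WT, squares for KO and triangles for KI, blue for vehicle and red for PFOA. KI vehicle mouse 102 is alone at the lower left for Sec14l2 and Socs3, and the KO and KI PFOA libraries lie at the top for Lcn2, between 33.2 and 47.9 CPM.

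The wider setting of Mfsd2a was described with 8 lists of genes of lipid handling, with 178 genes beside Mfsd2a, of which 168 were tested. With edgeR, 0 of the 168 passed the threshold on PFOA in any genotype, as did 0.0% of all genes. DESeq2 on the same genes called Scd1 and Pla2g7 in KO and none in WT or KI, against 0.252%, 0.0891% and 0.00371% of all genes. At an unadjusted p under 0.05, list genes came to 8.33% in WT, 8.93% in KO and 2.38% in KI, near the 7.25%, 9.76% and 2.6% of all genes. In KO, 15 list genes were higher on PFOA and 0 lower, whereas 3.77% of all genes were higher and 5.99% lower. In WT, 7 were higher and 7 lower (3.18% and 4.07% of all genes), and in KI 4 were higher and 0 lower (1.44% and 1.16%). The median log2 fold change of the list genes was 0.07 in WT, 0.18 in KO and 0.06 in KI, against 0.04, -0.03 and 0.00 for all genes.

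The ranges of the list genes were compared as well, for the KO and KI pattern that Mfsd2a was picked for. The lists were chosen with earlier results of these data known. The paper also names Mfsd2a, Mylip and Scd1 among its top differentially expressed genes. The counts are therefore descriptions, and nothing is read from their shares. In the paper, Mfsd2a and Mylip are described as raised or tending upward on PFOA, and Scd1 as tending downward. Every PFOA library was above every vehicle library in both KO and KI for 6 of the 168 list genes (3.57%), against the 0.39% of all genes given above, and 0 list genes were lower in that way. With a mean of at least 1 CPM, it was 6 of 156 list genes and 96 of 19201 genes in all. Among these were Lpcat3, Mylip, Scd1, Scd2 and Srebf1. In Lpcat3 the KI ranges were barely separate, both at 19.0 CPM where they met. The WT ranges overlapped in Lpcat3, Scd1, Scd2 and Srebf1, and were higher on PFOA without overlap in Mylip. Without WT vehicle mouse 122 and KO vehicle mouse 137, an alternative chosen after the values were seen, the count was again 6 of 168, against 0.564% of all genes. Scd2, a desaturase paralog of Scd1, and Srebf1, which encodes SREBP-1, the activator of fatty acid synthesis genes, were named after this count was seen. Srebf1 had 48.4 to 58.9 CPM in KO vehicle and 68.0 to 77.8 in KO PFOA, and 62.7 to 70.5 in KI vehicle and 76.8 to 80.6 in KI PFOA. Its WT ranges were 60.3 to 68.4 and 67.2 to 82.5 CPM.

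Among transporters of lysophospholipids and related lipids (11 genes tested), the largest positive log2 effects in KO and KI were those of Abca1, below the 1.66 and 2.11 of Mfsd2a. At an unadjusted p under 0.05, 2 were higher in WT and 1 each in KO and KI, and 0 were lower. For this and each later list, the shares of all genes were 3.18% higher and 4.07% lower in WT. They were 3.77% and 5.99% in KO, and 1.44% and 1.16% in KI. Abca1, which exports cholesterol and phospholipid to apolipoprotein A-I, had positive log2 effects in all genotypes, of 0.85 (SE 0.29) in WT, 0.65 (SE 0.26) in KO and 0.71 (SE 0.26) in KI. The edgeR adjusted p were 0.547, 0.486 and 1.0. In KI its ranges overlapped, at 167 to 187 CPM on vehicle and 162 to 401 on PFOA, and the effect was 0.40 without KI PFOA mouse 57. Abca3, which loads surfactant phospholipid into the lamellar bodies of alveolar type 2 cells, had -0.11, 0.34 and 0.13, and Spns1, a lysosomal carrier of lysophospholipids, 0.03, 0.15 and 0.21. Both were named for their roles.

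Of the genes that acylate lysophospholipids or release them from phospholipids (36 tested), 2 were lower in WT, 3 higher in KO and 0 different in KI at an unadjusted p under 0.05. Pla2g7, a secreted hydrolase of oxidized phospholipids, had 7.57 to 10.2 CPM in KO vehicle and 17.5 to 29.0 in KO PFOA, without overlap. Its log2 effect in KO was 1.31 (SE 0.33, adjusted p = 0.428 with edgeR and 0.166 with DESeq2). Lpcat3, which puts polyunsaturated fatty acids onto lysophosphatidylcholine, had 0.66 (SE 0.23, edgeR adjusted p = 0.477) in KO. Of the phosphatidylcholine synthesis genes (20 tested), 2 were lower in WT and 0 differed in KO or KI at that level. Of the omega-3 fatty acid synthesis and activation genes (18 tested), 1 was lower in WT, 1 higher in KO and 0 differed in KI. The KO gene was Fads1, the delta-5 desaturase, at 0.48 (SE 0.19, edgeR adjusted p = 0.486).

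Regulators and targets of SREBP and LXR, the transcription factors of sterol and fatty acid synthesis and of sterol export, held the most such genes. Of 24 tested, 7 were higher and 0 lower in KO, 2 higher and 0 lower in KI, and 2 higher and 2 lower in WT. Among all genes, 3.77% were higher and 5.99% lower in KO, 1.44% and 1.16% in KI, and 3.18% and 4.07% in WT. The KI and WT counts are too small to be read. Nothing is read from the KO count either, since the lists were chosen with earlier results of these data known. The median log2 effects of the list were 0.28 in KO, 0.20 in KI and 0.08 in WT. Scd1, the stearoyl-CoA desaturase, had 228 to 746 CPM in KO vehicle and 1390 to 1650 in KO PFOA. Its log2 effect was 1.55 (SE 0.37, adjusted p = 0.428 with edgeR and 0.138 with DESeq2) in KO, 0.72 (SE 0.37) in KI and 0.44 (SE 0.41) in WT. The KO value was 1.2 without KO vehicle mouse 137, a library that stood apart and had the 228 CPM. The WT value turned to -0.21 without mouse 122, which had 304 CPM of Scd1, and was 1.60 without the other WT vehicle mouse, 107. Mylip, a ubiquitin ligase that LXR induces, had positive log2 effects in all genotypes, of 0.97 (SE 0.30) in WT, 0.91 (SE 0.27) in KO and 1.09 (SE 0.26) in KI. The edgeR adjusted p were 0.499, 0.471 and 1.0. Without WT vehicle mouse 107 the WT value was 1.17.

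PPAR receptors and targets had 24 members tested, of which 1 was higher in WT and 0 differed in KO or KI at an unadjusted p under 0.05. The fatty acid uptake and binding genes (19 tested) had 0 lower, and 1 higher in WT, 2 in KO and 1 in KI. Lpl, the lipase that releases fatty acids from lipoproteins at the capillary wall, had log2 effects of 0.75 (SE 0.34) in WT, 0.89 (SE 0.30) in KO and 0.85 (SE 0.30) in KI (edgeR adjusted p = 0.651, 0.473 and 1.0). In KI its ranges overlapped, at 114 to 154 CPM on vehicle and 111 to 364 on PFOA, and the effect was 0.39 without KI PFOA mouse 57 and 0.52 with the index number as a covariate. The WT effect was 0.49 without WT vehicle mouse 122. The list of caveolae and endothelial transcytosis (16 tested) had 0 lower, and 1 higher in each of WT and KO. That gene was Lef1, a transcription factor, with log2 effects of 0.895 (SE 0.225) in WT and 0.443 (SE 0.194) in KO. The edgeR adjusted p were 0.47 and 0.496. This list also held genes of cell junctions, whereas in brain vessels Mfsd2a is known to restrain transport by caveolae.

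**Figure D5:**
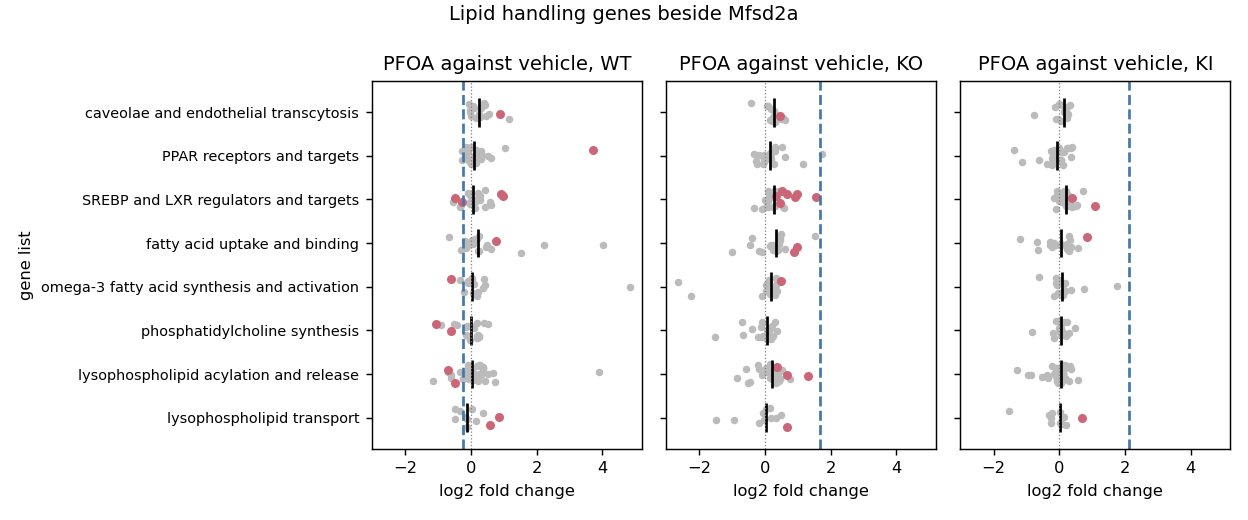
Log2 fold change of PFOA against vehicle for the members of the 8 lists of lipid handling genes, by genotype, with red points for an unadjusted edgeR p under 0.05, black ticks for list medians and a dashed blue line for Mfsd2a. The Mfsd2a line at 1.66 in KO and 2.11 in KI lies to the right of nearly all points, and list medians lie near 0.

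In bulk lung RNA, more cells of a type and more RNA per cell cannot be told apart, so the summed CPM of 15 lists of cell type markers are given beside the Mfsd2a levels. The alveolar type 2 list (15 of 15 markers in the table) had 3860 to 11000 CPM in KO vehicle, 10900 to 11300 in KO PFOA, 7770 to 10700 in KI vehicle, 8390 to 12000 in KI PFOA, 5740 to 12000 in WT vehicle and 8100 to 9440 in WT PFOA. Its markers had positive log2 PFOA effects in 14 of 15 cases in KO, 15 of 15 in KI and 6 of 15 in WT. The medians were 0.44, 0.26 and -0.03, against -0.03, 0.00 and 0.04 for all genes. In KO, 13 of 15 endothelial, 9 of 10 fibroblast and 10 of 10 monocyte markers were positive too, but 1 of 10 club cell and 2 of 10 ciliated cell markers. KO vehicle sums also spread widely for fibroblasts (1640 to 4020 CPM) and monocytes (509 to 1180 CPM). At an unadjusted edgeR p under 0.05, Sftpd was higher in KO (0.50) and in KI (0.49), and Muc1 was lower in WT (-0.475). Of all genes, 3.77% were higher in KO, 1.44% higher in KI and 4.07% lower in WT at that level. The summed level of the alveolar type 2 list had r = 0.225 with Mfsd2a over the 17 libraries and -0.136 for deviations from group means. The endothelial list (15 of 15 in the table) had 1950 to 5020 CPM in KO vehicle, 3880 to 4730 in KO PFOA, 3780 to 3940 in KI vehicle, 4060 to 4600 in KI PFOA, 2640 to 4130 in WT vehicle and 4370 to 4800 in WT PFOA, with r = 0.0877. Neither summed level followed Mfsd2a closely, but a sum is set mostly by its most abundant markers. Single alveolar type 2 markers ran from r = 0.0382 for Sftpc to 0.6 for Sftpd. Sftpd, Sftpc and Muc1 were named after their values were seen. The part of these cell types in the Mfsd2a levels was not tested.

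The neutrophil list had the highest r with Mfsd2a, 0.624 over the 17 libraries and 0.133 for deviations from group means. Its sum over 9 of 10 markers was 38.1 to 56.4 CPM in KO vehicle and 102 to 119 in KO PFOA, 45.3 to 51.8 in KI vehicle and 54.6 to 105 in KI PFOA, and 47.5 to 58.9 in WT vehicle and 38.9 to 70.0 in WT PFOA. The ranges were separate in KO and KI and overlapped in WT. At an unadjusted p under 0.05, 7 of 9 markers were higher in KO, 2 of 9 in KI and 1 of 9 in WT. Among all genes, 3.77%, 1.44% and 3.18% were higher at that level. Lcn2, picked above for its likeness to Mfsd2a, is 1 of the 9. Without it, a sum added after these values were seen, r was 0.422 and 0.00233 within groups. The sum of the other 8 markers was 22.4 to 29.1 CPM in KO vehicle and 62.5 to 80.8 in KO PFOA, still separate. It was 19.8 to 41.5 CPM in KI vehicle and 21.4 to 57.5 in KI PFOA, and 15.8 to 39.3 in WT vehicle and 17.1 to 45.1 in WT PFOA, and both of these pairs overlapped. The part of neutrophils in the Mfsd2a levels was not tested.

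For the other 12 lists, r between the summed level and Mfsd2a was 0.397 for alveolar macrophages, 0.242 for monocytes, 0.187 for T and NK cells, 0.179 for alveolar type 1 cells, 0.112 for hepatocytes, 0.0873 for fibroblasts, 0.0355 for club cells, -0.162 for ciliated cells, -0.171 for cardiac muscle, -0.22 for B and plasma cells, -0.228 for adipocytes and -0.329 for erythroid cells. Cardiac muscle markers varied widely within groups, for example from 386 to 4600 CPM in WT PFOA and from 643 to 6700 in KI PFOA. Hepatocyte markers summed to at most 30.4 CPM, and 3 of the 10 (Apoa2, Ttr and Fgb) were below the filter.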

How the data were processed

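Total lung RNA of 17 mice was sequenced after a stranded total RNA library kit, and the authors used Partek Flow, with STAR 2.6 for alignment (mm10) and an expectation-maximization step for quantification. The deposited values are estimated counts of 31245 genes and were not normalized. How strand was used and the annotation release are not given in the sources used here. Of the gene names, 96.7% occurred once in GENCODE M21, and 99.4% of these had the same start. The Mfsd2a counts were whole numbers in every library.

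Counts were rounded, and genes with a total of at least 20 were kept, which left out 4297. edgeR 4.0.16 (R 4.3.3) fitted 1 coefficient per group over all 17 libraries with TMM factors and quasi-likelihood tests, with Benjamini-Hochberg adjustment over all 26948 genes and genes were called at over 2-fold change with adjusted p below 0.2. Sex was added as a term for its own contrast. Alternatives were DESeq2 1.42.0 (on the same genes, or with independent filtering), upper-quartile or RLE factors, filterByExpr or no filter, sex or the index number as a covariate, the compared groups alone, and each library left out. Correlations used log2 CPM with a prior count of 2, and their alternatives were other prior counts (0.5 and 5), RLE factors, other filters and Spearman's rho. Every pair of replicate libraries differed by more than sampling noise, the lowest chi-square per degree of freedom being 6.28, so each counted as 1 replicate. A count of 3 corresponds to 0.325 to 0.729 CPM. The labels give separate mice, and nothing states whether litters or cages were shared.

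Mfsd2a, the lists, the markers and the tests were chosen with earlier results of these data known. The genes named were the 10 highest and 5 lowest in r, the 5 highest in r within groups, the genes within 100 kb, and, from each list, members with an unadjusted p under 0.05 in both KO and KI or else up to 2 with the smallest p, and those called by DESeq2. Others were named for their role or after their values were seen, as stated. Tables and figures were made with Python 3.11.15, pandas 2.3.3, numpy 2.4.6, scipy 1.17.1 and matplotlib 3.10.9. The promoter came from the RefSeq table of GRCm38.p6. A result on 1 list gene is not reported here.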

Additional observations from a re-analysis of the deposited data

How the results depend on the processing

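No paired analysis was possible because the groups share no replicate numbers, each number being that of a single mouse. The low depth of Mfsd2a, down to 4 counts, and 2 to 3 mice per group limit the precision, and in the fits that left out a WT vehicle library the lone library left was assumed to vary like the other groups. Leaving out 1 library at a time gave PFOA effects of -0.51 to -0.0085 in WT, 1.42 to 1.81 in KO and 1.73 to 2.65 in KI, and the KI effect was lowest without vehicle mouse 102 and highest without vehicle mouse 116. The sign was kept in each genotype under all 26 alternatives, which re-used the libraries that the gene was picked from. The sign carries little in WT, where the effect was -0.0085 (SE 0.42) without WT PFOA mouse 50. With the index number as a covariate the KO effect moved to 2.21 (SE 0.635). In KO this number and the exposure cannot be told apart, so that value leans on index differences in WT and KI.

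KI minus KO was -1.03 to -0.11 on vehicle and -0.15 to 0.11 on PFOA with 1 library left out, the latter turning sign without KO PFOA mice 154 (0.05) or 155 (0.01) or KI PFOA mouse 57 (0.11). The KI effect minus the KO effect was 0.08 to 0.99 with 1 library left out and -0.19 with the index number as a covariate, which has the same limit in KO. The sex difference was -0.24 to 0.44 with 1 library left out, negative without KI vehicle mice 102 (-0.24) or 116 (-0.02) or KI PFOA mouse 57 (-0.10), -0.46 with the index number and -0.68 in WT with separate sex terms. None of these tests passed the threshold under the alternatives run, with edgeR or DESeq2 adjusted p of 0.552 to 0.997 for KI minus KO on vehicle, 1.0 on PFOA, 0.77 to 1.0 for the effect and 0.803 to 1.0 for sex.

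The count of list genes called was 0 to 12 in WT with 1 library left out (12 of 168, or 7.14%, without vehicle mouse 107, where 6.25% of all genes tested were called), and 2 in KO with DESeq2 with either filter. Of the 10 genes most like Mfsd2a, 1 to 9 stayed in the top 10 with 1 library left out, 1 with Spearman's rho, and 1 without the 2 libraries farthest from the median. With 1 library left out, the WT effect of Scd1 ran from -0.21 to 1.60 and that of Lcn2 from -0.44 to 0.25, and Lcn2 had 0.015 with sex as a covariate. The cause of these changes was not tested.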
